A study of Mus musculus with 14 samples.

Results

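A set of 10 genes that pericentral hepatocytes are known to express under Wnt control was followed across 7 groups of mouse hepatocyte RNA-seq libraries. The set was chosen by gene symbol and held 10 of the 21878 genes in the deposited tables: the metabolic targets Glul, Cyp2e1, Cyp1a2 and Lect2, the Wnt feedback genes Axin2, Nkd1, Lgr5, Rnf43 and Znrf3, and the zonation factor Tbx3. All 10 were found, and all 10 were among the 14100 genes that passed the filter on low counts. All libraries came from C57BL/6 mouse liver cells, with 2 libraries in each group. FH were freshly isolated hepatocytes, and FH Yap-/- were freshly isolated hepatocytes labelled as knockout for Yap, the mechanosensitive transcriptional co-activator. BM 1D, BM 3D and BM 3W were hepatocytes labelled BM at 1 day, 3 days and 3 weeks, BM 3W Yap-/- were Yap-/- hepatocytes labelled BM at 3 weeks, and LBDXL 3W were hepatocytes labelled LBDXL at 3 weeks. BM and LBDXL are written as in the labels, and the sources used here do not give what they stand for, how Yap was removed, or whether the paired libraries of each group are independent animals or cultures. The p-values therefore reflect the spread between these libraries, which may be technical. The series title asks whether hepatocyte functions can be kept in vitro by inhibiting YAP activation that follows mechanical tension.

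Liver lobules are zoned. Endothelial cells of the central vein release Wnt ligands and R-spondin, and the hepatocytes next to them respond through beta-catenin and TCF/LEF factors with a pericentral programme of glutamine synthesis and xenobiotic metabolism. The same signal induces its own brakes: Axin2 is a scaffold of the complex that degrades beta-catenin, Nkd1 binds Dishevelled, and Rnf43 and Znrf3 are ubiquitin ligases that remove Frizzled receptors from the membrane, while Lgr5 is an R-spondin receptor that protects those receptors.

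Promoter windows are shown for 3 metabolic targets and for Axin2, because the first 3 hold the letters of a TCF/LEF site and the Axin2 window, of a commonly used Wnt reporter gene, does not. Windows run from 250 bases before to 50 bases after an annotated start, are from RefSeq (GRCm38.p6), and were available for 7 of the 10 genes. The Axin2 window lies inside its annotated gene, which begins at base 108917828. The Nkd1 window, from base 88527383, also lies inside its gene, which begins at base 88521342. The first bases of both genes were therefore not searched. They are written 5′ to 3′ on the gene's own strand, and capitals mark CTTTGAT or CTTTGAA on either strand, so that TTCAAAG and ATCAAAG are matches on the opposite strand. The Cyp2e1 window is chr7:140763569-140763868 on the plus strand, the Cyp1a2 window chr9:57683606-57683905 on the minus strand, the Lect2 window chr13:56548489-56548788 on the minus strand and the Axin2 window chr11:108920099-108920398 on the plus strand.
Cyp2e1: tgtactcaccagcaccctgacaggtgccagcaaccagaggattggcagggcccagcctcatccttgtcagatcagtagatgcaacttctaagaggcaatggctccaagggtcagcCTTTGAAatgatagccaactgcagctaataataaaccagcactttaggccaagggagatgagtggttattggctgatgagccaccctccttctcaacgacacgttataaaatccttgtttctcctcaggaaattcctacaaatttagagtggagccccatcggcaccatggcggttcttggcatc
Cyp1a2: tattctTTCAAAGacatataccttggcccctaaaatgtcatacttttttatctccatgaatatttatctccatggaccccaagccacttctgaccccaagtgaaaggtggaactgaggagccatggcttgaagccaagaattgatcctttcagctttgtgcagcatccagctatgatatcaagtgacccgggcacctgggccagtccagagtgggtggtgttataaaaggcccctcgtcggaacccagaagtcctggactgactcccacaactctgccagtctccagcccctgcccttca
Lect2: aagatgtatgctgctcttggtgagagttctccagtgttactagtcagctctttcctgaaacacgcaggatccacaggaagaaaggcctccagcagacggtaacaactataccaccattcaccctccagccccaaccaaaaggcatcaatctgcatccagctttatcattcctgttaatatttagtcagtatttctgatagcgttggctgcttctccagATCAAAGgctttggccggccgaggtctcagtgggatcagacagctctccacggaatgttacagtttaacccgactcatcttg
Axin2: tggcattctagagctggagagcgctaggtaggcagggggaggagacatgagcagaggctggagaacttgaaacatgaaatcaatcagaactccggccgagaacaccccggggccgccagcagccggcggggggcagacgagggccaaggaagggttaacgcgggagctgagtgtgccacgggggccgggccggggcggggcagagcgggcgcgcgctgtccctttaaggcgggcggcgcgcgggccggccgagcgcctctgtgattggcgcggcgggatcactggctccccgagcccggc
The match lay at bases -135 to -129 from the start in Cyp2e1, at -244 to -238 in Cyp1a2 and at -32 to -26 in Lect2. Of 32851 windows of the same length, 8.65% held either motif. The Glul, Nkd1 and Rnf43 windows held none, which says only that these letters are not in these windows.

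Each library held between 15501005 and 21220365 counts. Levels are given as CPM, each gene's share of the counts in a library on a fixed scale, after scaling by TMM, the trimmed mean of M-values that sets libraries to a common scale; levels of different genes are compared only as FPKM, which also divides by transcript length. Yap1 itself was at 92.6 ± 7.03 CPM in FH (SD, n = 2), 24.8 ± 2.37 in FH Yap-/-, and 87.9 ± 10.8 in BM 3W. It was at 7.20 ± 0.770 CPM in BM 3W Yap-/-, so that reads of Yap1 remained in both knockout groups. The 10 hepatocyte markers summed to 206714-211491 CPM in FH, 171190-215811 in LBDXL 3W, 105246-127862 in BM 3W Yap-/- and 5296-36693 in BM 3W, with none of them at 0 in both libraries of any group. In bulk samples, fewer cells of a type and less RNA per cell cannot be told apart. The scale matters in these data: with total counts in place of TMM, the median log2 change of all genes tested moved from 0.17 to 1.08 in BM 1D against FH, to 1.11 in BM 3D and to 1.46 in BM 3W; values with total counts are given beside several results that change with it.

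In FH the metabolic targets stood far above the feedback genes when compared per length. Mean FPKM was 5104 for Cyp2e1, 439 for Glul, 426 for Cyp1a2 and 37.5 for Lect2. Tbx3 followed at 2.86, Rnf43 at 2.45, Znrf3 at 1.64, Lgr5 at 1.38, Axin2 at 0.657 and Nkd1 at 0.267. The metabolic targets therefore carried large read numbers in FH, whereas Axin2 had 97 and 86 reads and Nkd1 34 and 33.

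**Figure D1:**
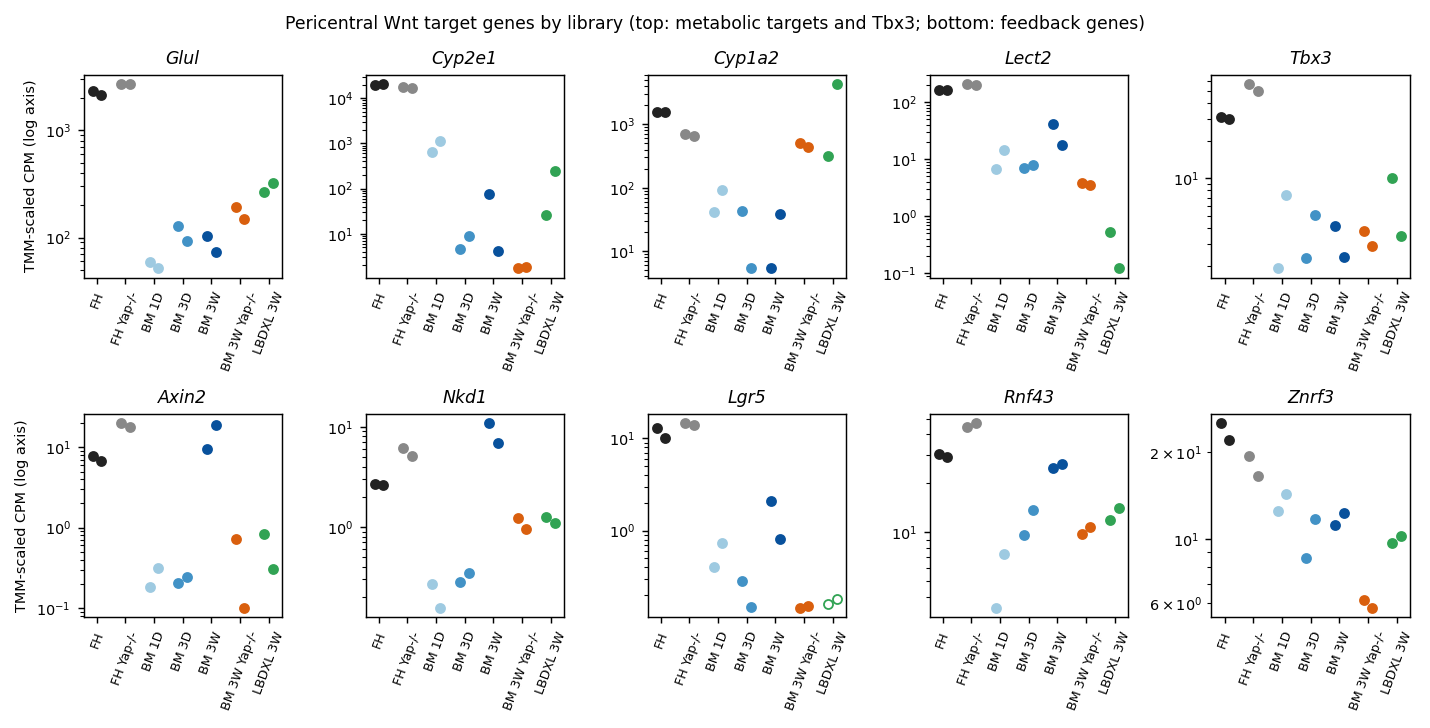
TMM-scaled CPM of each gene in each of the 14 libraries, on a log axis; points are libraries, and the open points of Lgr5 mark LBDXL 3W libraries with 0 counts, drawn at the level of 3 counts. Glul stays under 325 CPM in all cultured libraries against 2129 and 2322 in FH, while Axin2 and Nkd1 are low at 1 and 3 days and high in both BM 3W libraries.

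Glul encodes glutamine synthetase, the enzyme that fixes ammonia in the hepatocytes around the central vein. It was at 2322 and 2129 CPM in FH and 2711 and 2678 in FH Yap-/-. In BM hepatocytes it was at 58.8 and 51.5 CPM at 1 day, 127 and 92.9 at 3 days, and 103 and 73.6 at 3 weeks. BM 3W Yap-/- libraries were at 192 and 149 CPM and LBDXL 3W libraries at 265 and 325. Every cultured library was thus below every FH library, and among cultured groups LBDXL 3W was highest; BM 3D and BM 3W overlapped.

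Cyp2e1, the pericentral cytochrome P450 that oxidises ethanol and acetaminophen, had the widest range. FH held 19965 and 21058 CPM and FH Yap-/- 17738 and 16816. BM libraries fell to 648 and 1164 CPM at 1 day, and held 4.50 and 8.96 at 3 days and 74.4 and 4.19 at 3 weeks. BM 3W Yap-/- was at 1.70 and 1.81 CPM, and LBDXL 3W at 25.8 and 248. The 2 BM 3W libraries differed 17.8-fold and the 2 LBDXL 3W libraries 9.63-fold, so BM 3W was not separated by its spread from LBDXL 3W or BM 3D, whereas both LBDXL 3W libraries were above both BM 3D libraries.

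Cyp1a2, a P450 that metabolises caffeine and is also induced through the aryl hydrocarbon receptor, followed its own course. It was at 1580 and 1539 CPM in FH and 705 and 654 in FH Yap-/-. BM libraries held 41.2 and 90.4 CPM at 1 day, 43.5 and 5.32 at 3 days, and 5.35 and 38.8 at 3 weeks. BM 3W Yap-/- was at 500 and 442 CPM, and LBDXL 3W at 311 and 4367. One LBDXL 3W library was therefore below FH and the other above it, a 14.03-fold difference within the group, while both BM 3W Yap-/- libraries were above all 6 BM libraries.

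Lect2, which encodes a secreted hepatocyte protein, was at 161 and 162 CPM in FH and 210 and 197 in FH Yap-/-. It was at 6.68 and 14.4 CPM in BM 1D, 6.93 and 7.98 in BM 3D and 40.6 and 17.4 in BM 3W. It was at 3.84 and 3.57 CPM in BM 3W Yap-/- and at 0.529 and 0.121 in LBDXL 3W, the latter from 10 and 2 reads. Both LBDXL 3W libraries were thus below all other libraries in Lect2.

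Axin2 was at 7.71 and 6.81 CPM in FH and 20.1 and 17.9 in FH Yap-/-. BM 1D held 0.181 and 0.312 CPM and BM 3D 0.203 and 0.246, from 4 to 6 reads each. BM 3W held 9.53 and 18.8 CPM. BM 3W Yap-/- and LBDXL 3W were at 0.729 and 0.101 and at 0.846 and 0.302 CPM. Both BM 3W libraries were above both FH libraries, and they overlapped FH Yap-/-, while the 4 lowest groups were not separated from their neighbours by their spread.

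Nkd1 followed Axin2, with 2.70 and 2.61 CPM in FH and 6.07 and 5.12 in FH Yap-/-. It was at 0.271 and 0.156 CPM in BM 1D, 0.284 and 0.345 in BM 3D, and 10.9 and 6.95 in BM 3W. BM 3W Yap-/- libraries were at 1.21 and 0.956 CPM and LBDXL 3W libraries at 1.27 and 1.09, which overlapped. BM 3W was the highest of the 7 groups for Nkd1.

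Rnf43 was at 30.4 and 28.9 CPM in FH, 44.0 and 46.9 in FH Yap-/-, and 24.9 and 26.3 in BM 3W. It was at 3.43 and 7.39 CPM in BM 1D, 9.64 and 13.6 in BM 3D, 11.9 and 14.1 in LBDXL 3W and 9.77 and 10.8 in BM 3W Yap-/-. BM 3D overlapped both of the last groups. Znrf3, its paralog, moved within a narrower range: 25.2 and 22.0 CPM in FH, 19.4 and 16.6 in FH Yap-/-, 12.5 and 14.4 in BM 1D, 8.63 and 11.8 in BM 3D, and 11.2 and 12.3 in BM 3W. LBDXL 3W held 9.73 and 10.2 CPM of Znrf3, and BM 3W Yap-/- 6.17 and 5.78. BM 3W Yap-/- was the lowest group for Znrf3.

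Lgr5 was at 12.9 and 10.1 CPM in FH and 14.7 and 14.2 in FH Yap-/-. It was at 0.406 and 0.729 CPM in BM 1D, 0.284 and 0.148 in BM 3D, and 2.09 and 0.809 in BM 3W. The BM 3W Yap-/- libraries were at 0.146 and 0.151 CPM, from 3 reads each. Neither LBDXL 3W library had a read. Tbx3, a transcription factor and beta-catenin target, was at 31.1 and 29.8 CPM in FH and 57.3 and 50.6 in FH Yap-/-. It was at 1.90 and 7.39 CPM in BM 1D, 2.31 and 5.12 in BM 3D, and 4.12 and 2.34 in BM 3W. The BM 3W Yap-/- libraries were at 3.79 and 2.87 CPM and those of LBDXL 3W at 10.1 and 3.44. The 5 cultured groups overlapped in Tbx3, and all were below FH.

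The whole set was lower in early culture, as were most hepatocyte genes of other lists. In BM 1D all 10 genes fell against FH, and in BM 3D all 10 fell again against FH. Of all genes tested, 43.8% were called in BM 1D against FH, 20.2% as lower, and in BM 3D 40.5% were called, with 17.9% lower. The median log2 change of the metabolic targets was -4.53 at 1 day and -5.22 at 3 days, and that of the feedback genes -3.58 and -3.06, beside a median of 0.17 over all genes tested at both times. Of 16 other pericentral genes 14 fell at each time (median -3.66 and -3.91), of 16 periportal genes, which hepatocytes near the portal vein express, 13 and 12 fell (median -3.88 and -4.73), and of 10 hepatocyte markers 8 fell at each time (median -2.16 and -2.39). At 1 day Glul changed by -5.33 ± 0.36 (log2 fold change ± SE, adjusted p = 7.55e-06 in edgeR's quasi-likelihood test with Benjamini-Hochberg adjustment), Axin2 by -4.86 ± 0.75 (adjusted p = 0.000482) and Znrf3 by -0.81 ± 0.23 (adjusted p = 0.0154). At 3 days Cyp2e1 had changed by -11.57 ± 1.72 (adjusted p = 0.000521), Lgr5 by -5.67 ± 0.62 (adjusted p = 0.000153) and Rnf43 by -1.35 ± 0.31 (adjusted p = 0.00578). Between 1 and 3 days only Cyp2e1 passed the test (-7.07 ± 1.45, adjusted p = 0.0213), where 5.26% of all genes were called. The 1-day calls of Cyp2e1 and Cyp1a2 were lost without either BM 1D library (adjusted p 0.0556 to 0.106), and that of Znrf3 without BM 1D replicate 1 or either FH library (adjusted p 0.0559 to 0.114); Znrf3 at 1 day also turned to 0.11 with total counts, and Rnf43 and Znrf3 at 3 days lost their calls there (adjusted p = 0.252 and 0.33). The Cyp2e1 difference between 1 and 3 days was lost without BM 1D replicate 1, BM 3D replicate 1 or BM 3D replicate 2 (adjusted p 0.0585 to 0.105).

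At 3 weeks in BM 4 of the 5 feedback genes and 1 of the 4 metabolic targets were higher than at 3 days, and the difference between the 2 sets was not tested. Against BM 3D, Axin2 rose by 5.95 ± 0.76 (log2 fold change ± SE, adjusted p = 0.000424), Nkd1 by 4.80 ± 0.48 (adjusted p = 0.000108), Lgr5 by 2.69 ± 0.59 (adjusted p = 0.0102) and Rnf43 by 1.14 ± 0.31 (adjusted p = 0.0222), and among the metabolic targets only Lect2 rose (1.96 ± 0.45, adjusted p = 0.0101). Glul, Cyp2e1, Cyp1a2, Znrf3 and Tbx3 did not pass. Cyp2e1, at 2.55 (adjusted p = 0.14), passed without BM 3W replicate 2 (3.47, adjusted p = 0.0411) and with DESeq2 (adjusted p = 0.0268), and turned to -0.69 without BM 3W replicate 1. In this comparison 24.4% of all genes were called, 13.5% as higher, and the median was 2.69 for the 5 feedback genes, 0.91 for the metabolic targets and -0.10 for all genes tested. Against FH, where 59.1% of all genes were called, Nkd1 rose by 1.74 ± 0.41 (adjusted p = 0.00372), Axin2 at 0.96 ± 0.58 and Rnf43 at -0.21 ± 0.30 did not pass (adjusted p = 0.172 and 0.568), and the other 7 genes fell. Group means were 335% of FH for Nkd1, 195% for Axin2, 86.3% for Rnf43, 49.8% for Znrf3 and 12.6% for Lgr5, whereas Lect2 was at 18.0%, Glul at 3.97%, Cyp1a2 at 1.41% and Cyp2e1 at 0.192%. With total counts in place of TMM, Axin2 passed (2.29, adjusted p = 0.00631) and Rnf43 changed to 1.08 (adjusted p = 0.00824), while Znrf3 turned to 0.29 (adjusted p = 0.288). The rise of Lect2 over BM 3D was lost without BM 3D replicate 1 or BM 3W replicate 1 (adjusted p = 0.0657 and 0.0864), that of Lgr5 without BM 3D replicate 2 or BM 3W replicate 1 (adjusted p = 0.0602 and 0.0645), and that of Rnf43 without BM 3D replicate 1 or either BM 3W library (adjusted p 0.0677 to 0.13).

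**Figure D2:**
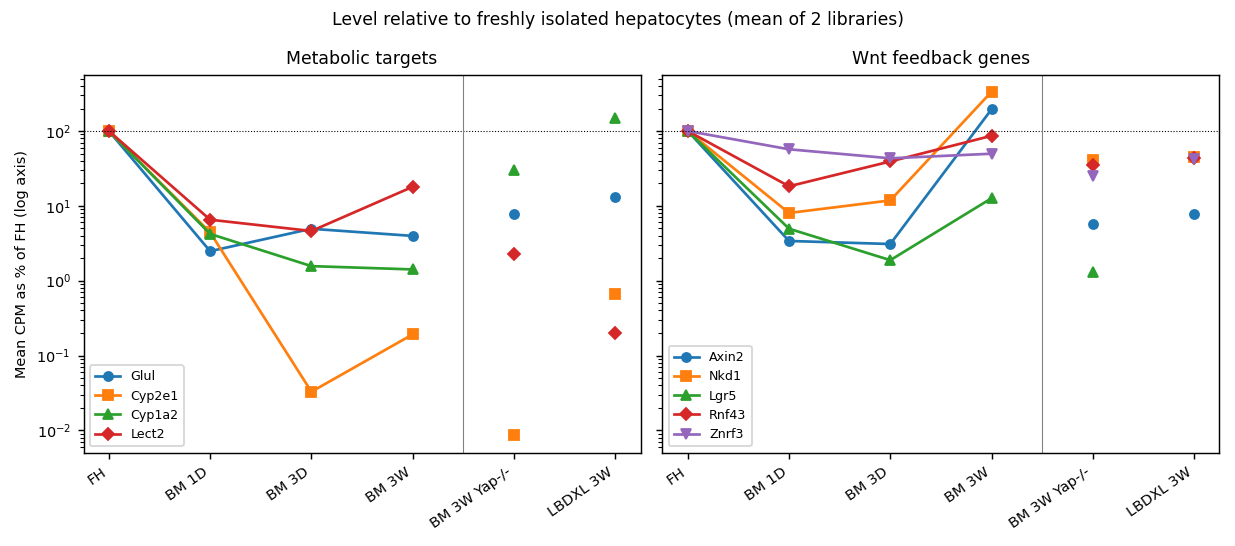
Mean CPM of 2 libraries as a percent of the FH mean, on a log axis, for the metabolic targets (left) and the feedback genes (right); lines join BM groups by time, and the last 2 groups are separate cultures at 3 weeks. In BM 3W, Nkd1 (335%) and Axin2 (195%) stand above FH and Rnf43 (86.3%), Znrf3 (49.8%) and Lgr5 (12.6%) below it. The places of Rnf43 and Znrf3 rest on TMM scaling. Their mean FPKM is 2.45 and 1.64 in FH, and 5.44 and 2.10 in BM 3W. The metabolic targets run from 0.192% for Cyp2e1 to 18.0% for Lect2, above Lgr5. Lgr5 in LBDXL 3W is not drawn because it had 0 reads.

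Other genes of the pathway were measured in BM 3W against BM 3D, where 24.4% of all genes were called, 13.5% as higher. Wls, which carries Wnt ligands to the cell surface, was at 4.70 and 4.33 CPM in BM 3D and 102 and 135 in BM 3W, a rise of 4.71 ± 0.42 (adjusted p = 5.48e-05). Rspo3, the R-spondin released at the central vein, was at 1.54 and 2.12 CPM in BM 3D and 23.2 and 16.7 in BM 3W (3.44 ± 0.43, adjusted p = 0.000385). Rspo1, the other R-spondin tested of 4 listed, rose from 0 in both libraries to a mean of 0.599 CPM (adjusted p = 0.0401), a call lost without any 1 of these 4 libraries (adjusted p 0.109 to 0.162) and with DESeq2 (adjusted p = 0.444). Of 8 tested Wnt ligands 4 rose and none fell, and of 14 tested receptors 5 rose and 1 fell; the one that fell, the R-spondin receptor Lgr4, was at 50.9 and 38.3 CPM in BM 3D and at 25.1 and 22.9 in BM 3W (-0.89 ± 0.20, adjusted p = 0.0092), a call lost with total counts (adjusted p = 0.104) and without BM 3D replicate 1 or BM 3W replicate 2 (adjusted p = 0.0675 and 0.0726). Of 8 tested Wnt inhibitors 3 rose, among them Frzb, from 2.19 and 2.36 to 62.7 and 51.5 CPM, and Dkk3, from 0.0405 and 0.296 to 56.8 and 52.0 CPM. Nkd2, the relative of Nkd1, rose from 0.365 and 0.246 to 6.00 and 6.41 CPM. Wnt2 and Wnt9b, the central vein ligands, stayed under 2 CPM in all 14 libraries. Ctnnb1, which encodes beta-catenin, was at 485 and 493 CPM in BM 3D and 432 and 585 in BM 3W and did not pass (0.06 ± 0.24, adjusted p = 0.887).

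Markers of several other cell types were also higher in BM 3W than in BM 3D, but not those of sinusoidal endothelium. The 14 stellate cell and fibroblast markers summed to 9343-10981 CPM in BM 3W, against 122-350 in BM 3D, 130-159 in FH, 469-545 in BM 3W Yap-/- and 344-610 in LBDXL 3W. Over BM 3D 13 of 14 rose, where 13.5% of all genes were called higher. The 12 Kupffer cell and macrophage markers summed to 2978-3795 CPM in BM 3W, 77.9-122 in BM 3D, 381-423 in BM 3W Yap-/- and 5.07-6.03 in LBDXL 3W, where Clec4f and Timd4 were at 0 in both libraries. The 10 cholangiocyte markers summed to 4449-5166 CPM in BM 3W, 152-637 in BM 3D, 125-136 in BM 3W Yap-/- and 29.5-52.7 in LBDXL 3W. Over BM 3D, 9 of 12 Kupffer cell and macrophage markers rose and 1 fell, and 4 of 7 tested cholangiocyte markers rose. The 12 sinusoidal endothelial markers summed to 239-325 CPM in BM 3D and 210-265 in BM 3W, and 0 rose and 6 fell between them. They summed to 33.5-49.3 CPM in BM 3W Yap-/- and 10.3-217 in LBDXL 3W. BM 3W therefore differed from the other 3-week groups in several cell type lists as well as in the feedback genes. Bulk RNA does not show which cells made the marker RNA. The part of other cell types in the feedback gene levels was not tested.

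**Figure D3:**
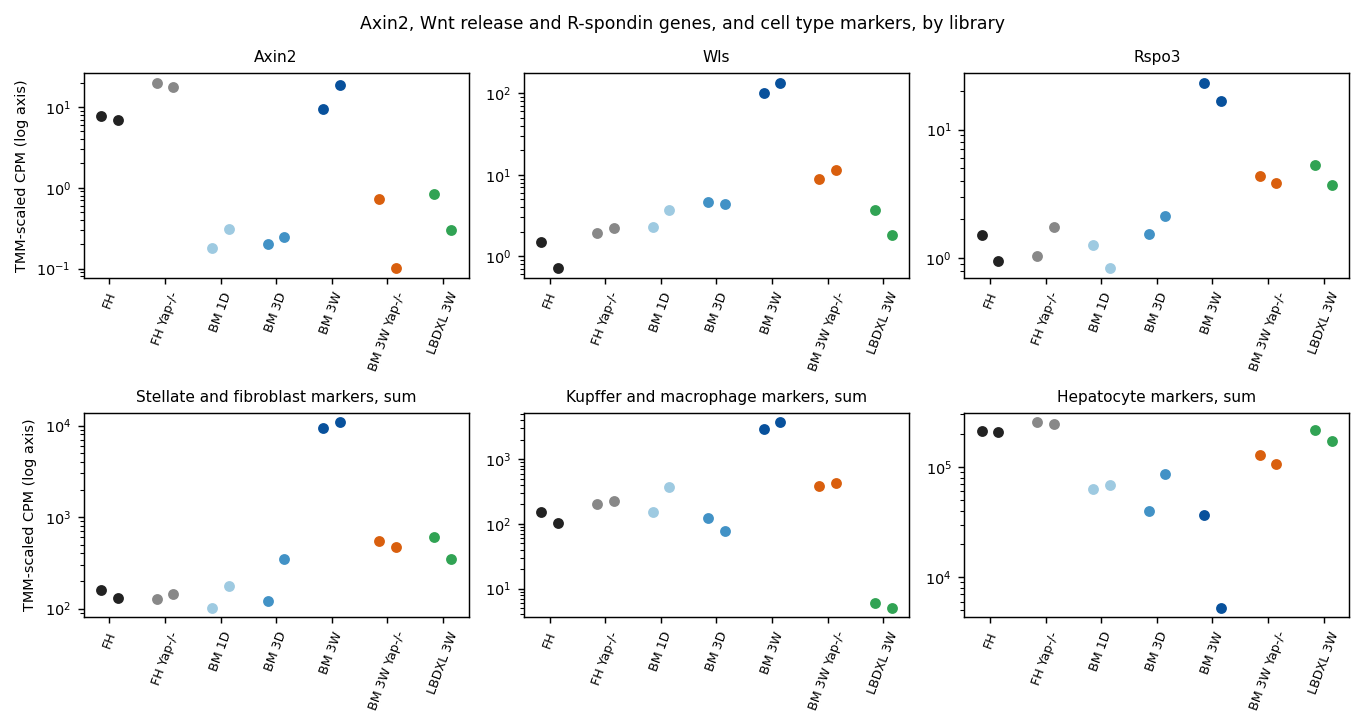
TMM-scaled CPM per library on log axes: Axin2, Wls and Rspo3 (top) and the summed stellate cell and fibroblast, Kupffer cell and macrophage, and hepatocyte markers (bottom); points are libraries. BM 3W is high in Axin2, Wls, Rspo3 and both non-hepatocyte sums, and low in the hepatocyte sum, where its 2 libraries lie at 5296 and 36693 CPM.

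All 5 feedback genes were lower in BM 3W Yap-/- than in BM 3W. Against BM 3W, Axin2 changed by -5.07 ± 0.72 (adjusted p = 0.00089), Nkd1 by -3.03 ± 0.43 (adjusted p = 0.000873), Lgr5 by -3.23 ± 0.64 (adjusted p = 0.0049), Rnf43 by -1.31 ± 0.31 (adjusted p = 0.00998) and Znrf3 by -0.97 ± 0.23 (adjusted p = 0.0105). The metabolic targets split: Glul rose by 0.95 ± 0.30 (adjusted p = 0.0337) and Cyp1a2 by 4.41 ± 1.32 (adjusted p = 0.0276), while Cyp2e1 fell by 4.48 on the log2 scale (adjusted p = 0.0248) and Lect2 fell by 2.97 (adjusted p = 0.0015). Tbx3 did not pass (0.05 ± 0.64, adjusted p = 0.962) and was -0.57 with total counts. In all, 9 of 10 genes were called, where 31.6% of all genes were, and the median was -3.03 for the feedback genes, -1.01 for the metabolic targets and -0.03 for all genes tested. With total counts the Glul difference was 0.33 and did not pass (adjusted p = 0.384), and was also lost without BM 3W replicate 2 or either library of BM 3W Yap-/-, FH or FH Yap-/- (adjusted p 0.0545 to 0.156). The calls of Cyp2e1 and Cyp1a2 were lost without BM 3W replicate 1 (Cyp2e1 -1.25, adjusted p = 0.405; Cyp1a2 3.61, adjusted p = 0.129) and without either BM 3W Yap-/- library (adjusted p 0.065 to 0.141), that of Rnf43 without either BM 3W Yap-/- library (adjusted p = 0.055 and 0.057), and that of Znrf3 without BM 3W replicate 2 or BM 3W Yap-/- replicate 2 (adjusted p = 0.0613 and 0.068).

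LBDXL 3W gave a related pattern against the same BM 3W libraries, which the 2 comparisons share. Axin2 changed by -4.59 ± 0.70 (adjusted p = 0.000549), Nkd1 by -2.91 ± 0.43 (adjusted p = 0.000448) and Rnf43 by -0.98 ± 0.31 (adjusted p = 0.0249), and Lgr5, without a read in LBDXL 3W, was at least 8.54-fold lower, taking 3 counts per library as the floor. Znrf3 did not pass (-0.24 ± 0.23, adjusted p = 0.43), but fell with total counts (-1.06, adjusted p = 0.00436). Among the metabolic targets Glul rose by 1.74 ± 0.31 (adjusted p = 0.00125) and Cyp1a2 by 6.73 ± 1.47 (adjusted p = 0.00421), Lect2 fell by 6.41 on the log2 scale (adjusted p = 4.66e-05) and Cyp2e1 did not pass (1.80 ± 1.14, adjusted p = 0.222). Cyp2e1 turned to -0.60 without LBDXL 3W replicate 2, and was 5.03 higher and passed without BM 3W replicate 1 (adjusted p = 0.0135). In this comparison 44.8% of all genes were called, and 7 of the 10 genes; the median was -2.91 for the feedback genes, also with Lgr5 at its floor, 1.77 for the metabolic targets and -0.02 for all genes tested. The call of Rnf43 was lost without any 1 of the 4 libraries of the 2 groups (adjusted p 0.063 to 0.1), and that of Cyp1a2 with only these groups in the fit (adjusted p = 0.053).

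**Figure D4:**
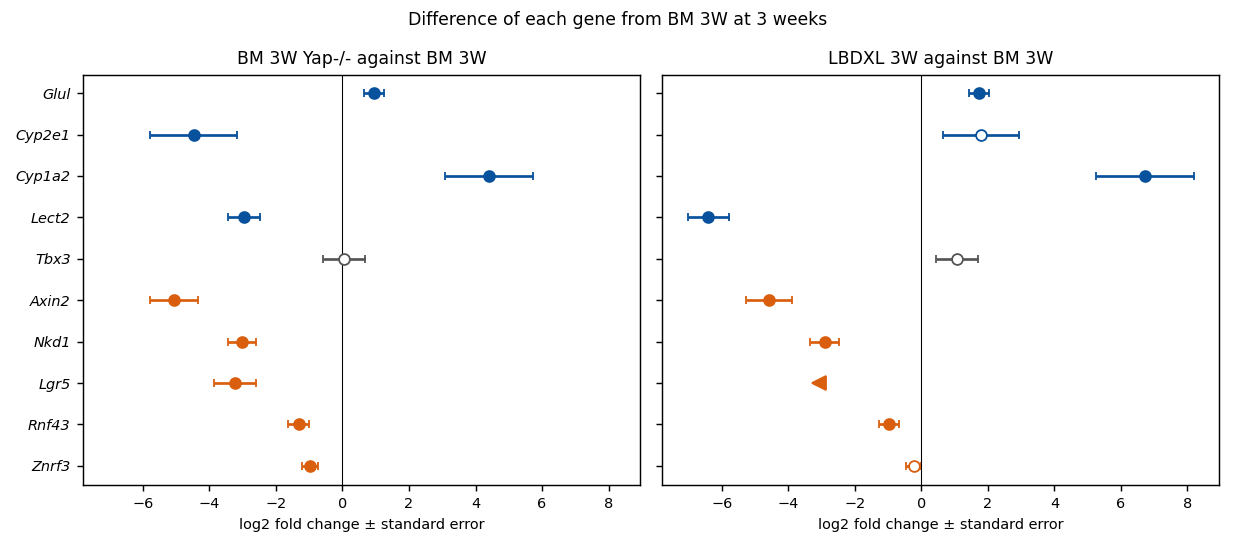
Log2 fold change ± SE of each gene in BM 3W Yap-/- (left) and LBDXL 3W (right) against BM 3W; filled points passed the test and open points did not. Blue marks metabolic targets, orange feedback genes and grey Tbx3, and the triangle of Lgr5 in LBDXL 3W marks the limit set by 3 counts. Axin2, Nkd1, Lgr5 and Rnf43 lie below 0 in both panels, Glul and Cyp1a2 above 0; the panels share the BM 3W libraries.

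Compared with FH, 8 of 10 genes were lower in LBDXL 3W. Lect2 fell by 8.89 on the log2 scale (adjusted p = 2.74e-05), Cyp2e1 by 7.22 (adjusted p = 0.0058), Axin2 by 3.63 (adjusted p = 0.00418), Glul by 2.92 (adjusted p = 0.00022), Znrf3 by 1.24 (adjusted p = 0.00408) and Lgr5 was at least 67.5-fold lower. Rnf43 at -1.19 ± 0.31 and Tbx3 at -2.16 ± 0.64 also fell (adjusted p = 0.0209 and 0.0335). Cyp1a2 at 0.58 ± 1.15 and Nkd1 at -1.17 ± 0.42 did not pass (adjusted p = 0.764 and 0.0721). Of all genes 21.3% were called and 9.60% were called lower. Without LBDXL 3W replicate 2, Cyp1a2 turned to -2.32 (adjusted p = 0.218). Rnf43 lost its call without LBDXL 3W replicate 1 or either FH library (adjusted p 0.0891 to 0.106) and with total counts (adjusted p = 0.0997), and Tbx3 without LBDXL 3W replicate 2 or either library of FH or FH Yap-/- (adjusted p 0.0535 to 0.135) and with total counts (adjusted p = 0.0606).

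The 14.03-fold gap in Cyp1a2 between the LBDXL 3W libraries was also seen in Cyp1a1, the neighbouring P450 that the aryl hydrocarbon receptor induces, at 159 and 1893 CPM, against 0.875 and 0.475 in FH. Ugt1a6a, another target of that receptor, was at 72.8 and 193 CPM, and the receptor gene Ahr was at 67.1 and 57.7. Tiparp, a further target, did not pass against FH in the main fit. Its log2 change was 0.92 with both libraries and replicate number in the edgeR fit (adjusted p = 0.0339). It was 1.43 without LBDXL 3W replicate 2 and without replicate number, so the 2 values come from unlike fits. Of 5 tested targets of the receptor 1 rose against FH and 4 did not pass, where 21.3% of all genes were called. The LBDXL 3W libraries also differed outside these targets. Cyp2e1 differed 9.63-fold, and of the endothelial markers Pecam1 was at 31.03 and 0.785 CPM. The chi-square per degree of freedom between the 2 LBDXL 3W libraries was 235, the largest of the 7 groups. Cyp1a1 and Cyp1a2 are paralogs, and whether the counting gave reads of either gene to the other was not tested. The part of receptor activity in the Cyp1a2 level was not tested.

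Directly against BM 3W Yap-/-, LBDXL 3W differed in 2 of 10 genes, where 6.94% of all genes were called. Cyp2e1 was higher in LBDXL 3W (6.28 ± 1.41, adjusted p = 0.0259) and Lect2 was lower (-3.44 ± 0.62, adjusted p = 0.011). None of the 5 feedback genes passed, with Axin2 at 0.47 ± 0.74, Nkd1 at 0.12 ± 0.42, Rnf43 at 0.34 ± 0.31 and Znrf3 at 0.74 ± 0.23 (adjusted p = 0.753, 0.904, 0.555 and 0.084), and Lgr5 was at or under 3 counts in all 4 libraries. With total counts Nkd1 was at -0.06. These values do not show that the groups are alike. The Cyp2e1 call was lost without LBDXL 3W replicate 2 or either BM 3W Yap-/- library (adjusted p 0.113 to 0.187), and the Lect2 call without LBDXL 3W replicate 2 or BM 3W Yap-/- replicate 2 (adjusted p = 0.0692 and 0.0527).

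In fresh hepatocytes none of the 10 genes passed the test for a difference between FH Yap-/- and FH, where 0.943% of all genes were called. At an unadjusted p under 0.05 there were 2 genes, and DESeq2 called 0. Axin2 was 1.39 ± 0.58 higher on the log2 scale (adjusted p = 0.502), Nkd1 1.07 ± 0.40 (adjusted p = 0.406) and Cyp1a2 -1.20 ± 1.16 (adjusted p = 0.923). The libraries of the 2 groups did not overlap in any of the 10 genes, so this does not set these 3 apart. The share of all genes without overlap is not given here. With the spread estimated from the 4 fresh libraries alone, 9 of 10 genes passed, all but Lgr5, together with 4251 of all genes. The filter on low counts was rerun on those libraries, so 4251 is not a share of the 14100 genes of the main fit. The chi-square per degree of freedom between the 2 libraries of a group was 5.49 in FH and 4.04 in FH Yap-/-, against 68 to 235 in the cultured groups.

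The difference between Yap-/- and control hepatocytes was itself different in BM at 3 weeks and in fresh cells for 6 of the 10 genes, by the interaction term, where 16.9% of all genes were called. It was -6.45 ± 0.92 for Axin2 (log2, adjusted p = 0.00214), -4.10 ± 0.59 for Nkd1 (adjusted p = 0.00214), -3.56 ± 0.80 for Lgr5 (adjusted p = 0.0162), -1.93 ± 0.44 for Rnf43 (adjusted p = 0.0147), -3.30 ± 0.63 for Lect2 (adjusted p = 0.00732) and 5.61 ± 1.74 for Cyp1a2 (adjusted p = 0.0488). Axin2 was thus higher in FH Yap-/- than in FH by its means and lower in BM 3W Yap-/- than in BM 3W. Glul, Cyp2e1, Znrf3 and Tbx3 did not pass; with total counts Cyp2e1 (-4.87, adjusted p = 0.046) and Znrf3 (-1.30, adjusted p = 0.0213) did. The Cyp1a2 call was lost in 12 of the alternatives tried, among them without BM 3W replicate 1 or either library of BM 1D, BM 3W Yap-/-, FH or FH Yap-/- (adjusted p 0.0539 to 0.161), that of Lgr5 without either library of BM 3W Yap-/-, FH or FH Yap-/- (adjusted p 0.053 to 0.0662), and that of Rnf43 without either library of FH or FH Yap-/- (adjusted p 0.0512 to 0.0612). From FH Yap-/- to BM 3W Yap-/-, 9 of 10 genes fell, all but Cyp1a2 (-0.53 ± 1.15, adjusted p = 0.749, and 0.05 with total counts), with 36.3% of all genes called; Axin2 changed by -5.49 ± 0.73 (adjusted p = 0.000347) and Glul by -3.98 ± 0.33 (adjusted p = 3.24e-05).

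The same pathway genes were read in the 3-week groups. Wls was at 8.84 and 11.6 CPM in BM 3W Yap-/-, was at 3.75 and 1.81 in LBDXL 3W, and fell against BM 3W in both (-3.54 ± 0.39, adjusted p = 0.000294, and -5.40 ± 0.43, adjusted p = 1.59e-05). Rspo3 was at 4.37 and 3.82 CPM and at 5.29 and 3.69, and also fell in both (adjusted p = 0.00276 and 0.00193). Frzb fell in both as well, to 6.22 and 5.58 CPM and to 3.17 and 2.36. Lgr4 rose in both, to 49.8 and 47.7 CPM and to 53.5 and 65.3, but not with total counts (adjusted p = 0.2 and 0.0946). Most called receptors went the other way. Of 14 tested, 1 rose and 7 fell in BM 3W Yap-/-, and 2 rose and 8 fell in LBDXL 3W. Among other pericentral genes, which hepatocytes near the central vein express and which were not chosen as Wnt targets here, 7 of 16 rose and 4 fell in BM 3W Yap-/-, and 8 rose and 1 fell in LBDXL 3W, where 31.6% and 44.8% of all genes were called in either direction. Of 16 periportal genes 12 rose and 1 fell in BM 3W Yap-/-, and 13 rose and 2 fell in LBDXL 3W. Of all 14100 genes tested, 2117 and 2980 rose. Pericentral and periportal lists thus both held genes that rose, but their medians differed. In BM 3W Yap-/- the median log2 change was 0.04 for the pericentral and 3.44 for the periportal list. In LBDXL 3W these medians were 1.74 and 5.55. Slc1a2, a pericentral glutamate transporter, was at 3.5 and 4.64 CPM in BM 3W, at 0.194 and 0.302 in its Yap-/- counterpart, and at 0 and 0.0604 in LBDXL 3W, against 689 and 654 in FH. Cyp27a1, which oxidises sterols, was at 18.1 and 11.1 CPM in BM 3W. It reached 111 and 143 CPM in the Yap-/- libraries and 217 and 698 in LBDXL 3W. Cyp2f2, a periportal P450, was at 0.343 and 1.05 CPM in BM 3W, against 789 and 723 in the Yap-/- libraries and 339 and 1862 in LBDXL 3W.

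Genes with the profile most like a member's were sought among 13653 genes by Pearson r of log2 CPM over the 14 libraries, which share groups and depth, as a description. For Glul these were Cpt1a (0.985), Abcd3 (0.983), Ctsh (0.980), Decr1 (0.980) and Isoc1 (0.979); Cpt1a, which brings fatty acids into mitochondria, was at 1235 ± 17.0 CPM in FH, 92.7 ± 21.5 in BM 3W and 205 ± 91.1 in LBDXL 3W (SD, n = 2). For Axin2 they included Cacna1d (0.956), Kansl1l (0.947), Fmn1 (0.946) and Ldlrad4 (0.938). Among the members, r was 0.96 for Lect2 with Lgr5, 0.90 for Axin2 with Nkd1 and 0.90 for Glul with Tbx3, and 0.70 at most for Cyp1a2 with the other 9. Lect2, Lgr5, Rnf43, Tbx3 and Glul overlap other annotated genes, and the sources used here do not name the strand setting of the counting, so reads of an overlapping gene cannot be separated from theirs.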

How the data were processed

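The deposited tables held raw counts per gene and FPKM per gene for 14 libraries, made by the authors; the tools listed in the submitters' processing notes are HISAT2, HTSeq, Cufflinks, Trimmomatic and DESeq, and the build is GRCm38.p6, with no settings in the sources used here. Per the labels' protocols, libraries came from a TruSeq Stranded mRNA kit. The table of 21878 genes had 27 symbols altered by a spreadsheet, restored through gene identifiers. From the deposited counts, edgeR 4.0.16 (R 4.3.3) fitted all 14 libraries in 1 model with TMM scaling, after filterByExpr kept 14100 genes. Quasi-likelihood F-tests were adjusted by Benjamini-Hochberg over all genes, with calls at an adjusted p under 0.05. The SE is the size of the log2 fold change divided by the square root of F. From the deposited FPKM, limma 3.58.1 was run on log2(FPKM + 1) and log2(FPKM + 0.1); DESeq2 1.42.0 was an alternative. Intervals were not computed, and the limit of 3 counts covers counting error only. A simulation with known changes was used to test the script. The members and lists were chosen with earlier results of these data known. Besides the members, genes named are, per list, at most 4 with the smallest p in a comparison, genes set beside a member, and the 5 most like Glul and Axin2. One gene that this rule would name is not reported here.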

Additional observations from a re-analysis of the deposited data

Results flagged for a closer look

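The difference between Yap-/- and control hepatocytes was not the same in BM at 3 weeks and in fresh cells in a direct test for 6 genes. The difference of the log2 changes was 5.613 for Cyp1a2, -3.297 for Lect2, -6.453 for Axin2, -4.102 for Nkd1, -3.562 for Lgr5 and -1.93 for Rnf43. Only Cyp1a2 moved upward, and its adjusted p of 0.0488 was lost in 12 of the alternatives tried.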

How the results depend on the processing

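Of 120 member results (10 genes in 12 comparisons), 75 were called, 48 of these held in every alternative, and 2 changed sign in some; of 45 not called, 22 passed in some alternative and 18 changed sign in some. With total count scaling, Znrf3 in BM 1D against FH was 0.11, with FPKM 0.0067 (pseudocount 1, with and without the filter) and 0.00899 (pseudocount 0.1); Znrf3 in BM 3W against FH was 0.29 with total counts and 0.23, 0.33 and 0.23 with FPKM; Rnf43 in BM 3W against FH was 1.08 with total counts and 0.90, 1.12 and 0.90 with FPKM. Cyp1a2 in LBDXL 3W against FH ranged from -2.32 without LBDXL 3W replicate 2 to 1.49 without LBDXL 3W replicate 1. The cause was not tested.

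Genes called with 1 library left out ranged from 3842 to 6517 for BM 1D against FH, 3435 to 6056 for BM 3D against FH, 1178 to 3171 for LBDXL 3W against FH, 178 to 1210 for BM 3D against BM 1D, 1664 to 4067 for BM 3W against BM 3D, 3993 to 6549 for LBDXL 3W against BM 3W, 1938 to 5165 for BM 3W Yap-/- against BM 3W, 209 to 1823 for LBDXL 3W against BM 3W Yap-/-, 13 to 231 for FH Yap-/- against FH, 2857 to 5524 for BM 3W Yap-/- against FH Yap-/- and 800 to 3027 for the difference of Yap effects. Members called ranged from 0 to 2 for BM 3D against BM 1D, 2 to 5 for BM 3W against BM 3D, 4 to 9 for BM 3W Yap-/- against BM 3W, 0 to 2 for LBDXL 3W against BM 3W Yap-/- and 3 to 7 for the difference of Yap effects. A lone library was assumed to vary like the others.

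With only the groups compared in the fit, genes called were 1759 for LBDXL 3W against FH, 0 for BM 3D against BM 1D, 3997 for LBDXL 3W against BM 3W, 169 for LBDXL 3W against BM 3W Yap-/-, 4251 for FH Yap-/- against FH and 4551 for the difference of Yap effects; members called were 0 for BM 3D against BM 1D, 0 for LBDXL 3W against BM 3W Yap-/- and 9 for FH Yap-/- against FH. DESeq2 called 1736 genes and 3 members for BM 3D against BM 1D, 1905 and 4 for LBDXL 3W against BM 3W Yap-/- and 374 genes for FH Yap-/- against FH. Without LBDXL 3W replicate 1 and BM 3W replicate 2 together, an alternative chosen after seeing the data, counts were 1830 for LBDXL 3W against FH, 1186 genes and 2 members for BM 3D against BM 1D, 1750 for LBDXL 3W against BM 3W Yap-/- and 234 for FH Yap-/- against FH. Total counts gave 8613 for BM 3D against FH. With FPKM, members called were 2 in each of the 3 fits for BM 3D against BM 1D and 1 and 0 (no filter) for LBDXL 3W against BM 3W Yap-/-; genes called were 7098 (no filter) for BM 3W Yap-/- against BM 3W, 269 (no filter) for FH Yap-/- against FH and 4244, 4061 and 5532 for the difference of Yap effects.

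Total counts shifted the split of higher and lower calls: from 3328 and 2842 to 7064 and 1351 in BM 1D against FH, from 3175 and 2530 to 7575 and 1038 in BM 3D, from 4653 and 3675 to 9282 and 1364 in BM 3W, from 1656 and 1353 to 3593 and 822 in LBDXL 3W, from 1906 and 1541 to 2540 and 704 in BM 3W against BM 3D, from 2980 and 3343 to 1135 and 6650 in LBDXL 3W against BM 3W, from 2117 and 2342 to 798 and 5053 in BM 3W Yap-/- against BM 3W, from 368 and 610 to 211 and 736 in LBDXL 3W against BM 3W Yap-/-, from 2793 and 2327 to 5193 and 1278 in BM 3W Yap-/- against FH Yap-/- and from 1133 and 1247 to 463 and 2780 in the difference of Yap effects.

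Replicate numbers were not shown to pair libraries: deviations of same-numbered libraries correlated at -0.02 to 0.46 over 21 pairs of groups, 5 of them over 0.1. The replicate block gave 2 members called for BM 3D against BM 1D in place of 1. Genes with few reads, such as Axin2 in BM 1D and BM 3D, limit what can be told apart there.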
